A study of Arabidopsis thaliana with 69 samples.

Results

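PEX4, AT4G26410, AT2G28390 and AT4G34270 are genes that plant laboratories use as internal references when they measure other transcripts. They were followed here through the formation of xylem vessel cells in Arabidopsis thaliana. The 4 genes were taken by name, as reference genes in common use, and each had 1 probe set on the Affymetrix ATH1 array, so 4 of the 13286 genes that could be named are described across all 69 arrays. The tissue was seedlings of ecotype Col-0 grown for 6 days in the dark in liquid culture. The VND7 line carried VND7-VP16-GR driven by the 35S promoter, which is active in most cells, and was treated with dexamethasone (DEX) at 10 µM, or with the solvent DMSO, and harvested at 1, 3, 6, 9, 12, 24, 30 and 48 h, with further DMSO-labelled cultures at 0 h. The empty-vector (EV) line carried VP16-GR without VND7 and was given DEX or DMSO for 9, 12 and 24 h. Each of the 23 groups had 3 arrays of separate biological replicates per the labels, which made 24 DEX and 27 DMSO arrays in the VND7 line and 18 arrays in the EV line. The labels call the tissue hypocotyl, but the protocol describes whole cultures. Over all arrays the root hair markers EXPA7 and EXPA18 averaged 3.04 and 5.15, and the greening markers PORB and LHCB4.1 averaged 10.8 and 10.7. The floor of the signal was 2.14. EXPA7 was at this floor in its lowest array, and the lowest signal of EXPA18 was 4.21. In such bulk RNA, fewer cells of a type and less RNA per cell cannot be told apart.

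VND7 is a transcription factor that switches on xylem vessel differentiation. As a fusion to the steroid-responsive domain of the glucocorticoid receptor (GR), it enters the nucleus when DEX is added, and the VP16 domain strengthens its activation of targets. Vessel cells deposit a thick patterned wall, then break down their contents after the vacuole bursts and die as empty tubes. A reference gene is useful in such a course if its transcript keeps pace with total RNA while the cells are remodelled. The 4 genes serve unrelated basic functions. PEX4 (AT5G25760) encodes a ubiquitin-conjugating enzyme at the peroxisome membrane that takes part in recycling the import receptor. AT4G26410 encodes RHIP1, a protein found to bind the G-protein regulator RGS1 and hexokinase 1. AT2G28390 encodes the SAND family protein MON1, which works with CCZ1 to activate RAB7 GTPases on the way to the vacuole. AT4G34270 encodes a TIP41-like protein, and its yeast relative acts in the TOR pathway through type 2A protein phosphatases.

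Signals are log2 values per probe set, so a difference of 1 is a factor of 2. A change was called at a limma p below 0.05 after Benjamini-Hochberg adjustment, in a fit to all probe sets and all arrays. Errors of group means are standard deviations of 3 arrays. In the text "rose" and "fell" are used only for called differences, and values of 3 arrays are given in the order of their replicate numbers. Whether DEX and DMSO arrays overlapped is description only, since the share of all probe sets without overlap was not counted.

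Some arrays did not go with their treatment label. By correlation over all probe sets, 10 of the 51 arrays of the VND7 line had a higher mean correlation with the other label, or at least 2 of their 3 nearest arrays under it: DMSO at 0 h (replicate 3), 1 h (replicate 2), 6 h (replicate 2) and 24 h (replicate 1), and DEX at 1 h (replicates 2 and 3), 24 h (replicate 2) and 48 h (all 3). The mean of 4 induction markers (the zinc finger gene AT1G66810 and the xylan genes GUT2, IRX15 and IRX15-L) was 4.23 to 5.93 in these 6 DEX arrays, against 7.66 to 12.57 in the other 18. It was 6.39 to 9.69 in the 4 DMSO arrays, against 4.09 to 4.63 in the other 23. All results are given with every array as labelled, and results that differ without these 10 arrays are given again. They were picked by how the whole profile goes with treatment, so calls made without them are not independent of that choice. Array medians lay between 4.89 and 5.60. At 9 h the 18 bacterial hybridisation control probe sets, whose targets are added to every sample in fixed amounts, averaged 10.17 ± 0.10 in DEX arrays and 9.43 ± 0.21 in DMSO arrays (SD, n = 3 each).

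PEX4 rose with DEX in the VND7 line at 5 of the 8 times. The plot of the signals by time shows it as a block of high DEX arrays between 3 and 12 h. At 1 h its signals were 9.91, 9.61 and 9.20 in DEX arrays, against 9.34, 9.76 and 9.49 in DMSO arrays, and the groups overlapped. At 3 h they were 10.28, 10.22 and 10.32 with DEX, against 9.18, 9.75 and 9.31 with DMSO. At 6 h the DEX arrays read 10.27, 10.42 and 10.36, against 9.43, 9.53 and 8.92 for DMSO. Every DEX array lay above every DMSO array at both times, and the lowest signal of the gene in the series was that of DMSO replicate 3 at 6 h. At 9 h the signals were 10.32, 10.46 and 10.33 with DEX, against 9.37, 9.35 and 9.67 with DMSO. At 12 h they were 10.24, 10.30 and 10.26 with DEX, against 9.22, 9.41 and 9.55 with DMSO. The DEX arrays were again all higher, and they were closer to each other than the DMSO arrays were. At 24 h PEX4 read 9.86, 9.61 and 10.03 with DEX, against 9.81, 9.19 and 9.77 with DMSO, with overlap. At 30 h it read 9.94, 10.12 and 9.88 with DEX, against 9.60, 9.31 and 9.45 with DMSO, with none. At 48 h it read 9.58, 9.43 and 9.52 with DEX, against 9.57, 9.22 and 9.26 with DMSO. Those DEX arrays are the 3 whose profile goes with DMSO, and the groups overlapped.

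**Figure D1:**
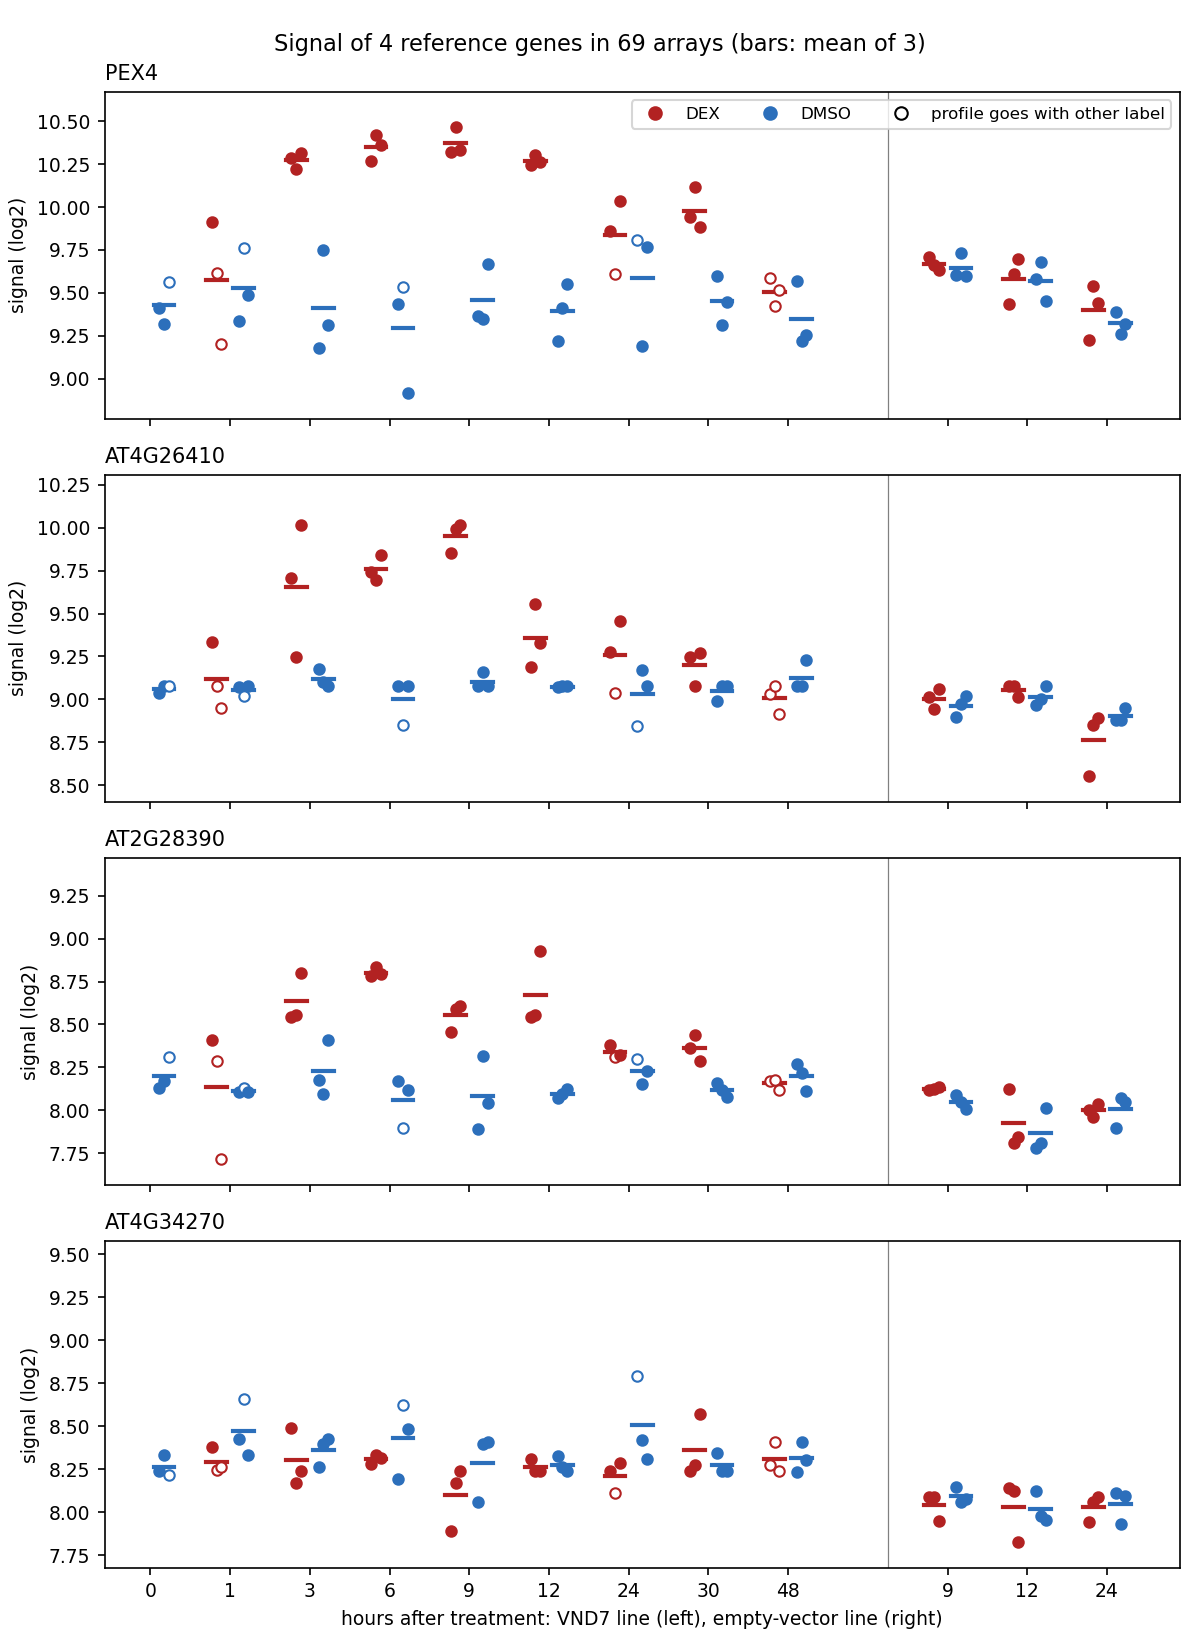
Signal (log2) of the 4 reference genes in each array by hours after treatment (times equally spaced, not to scale), VND7 line on the left and EV line on the right, with DEX in red left of DMSO in blue, bars at the mean of 3 arrays and open circles for the 10 arrays whose profile goes with the other label. PEX4 reads 10.22 to 10.46 in the DEX arrays of 3 to 12 h and at most 9.81 in any DMSO array of the VND7 line, while AT4G34270 overlaps between treatments at 7 of 8 times.

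As changes, these came to 0.86 ± 0.15 (SE) at 3 h, 1.05 ± 0.15 at 6 h, 0.91 ± 0.15 at 9 h and 0.87 ± 0.15 at 12 h, with limma adjusted p of 8.98e-06, 1.84e-07, 2.72e-06 and 9.79e-06. At 30 h PEX4 rose by 0.53 (adjusted p = 0.00457 by limma). The 6 h rise was the one change of a reference gene that reached 1 on this scale (95% interval 0.75 to 1.35, a factor of 2.07). At 1, 24 and 48 h the differences were 0.05, 0.25 and 0.16 and were not called. Among all 22746 probe sets tested, the share called was 0.0528% at 1 h, 43% at 3 h, 35.3% at 6 h, 43.7% at 9 h, 35% at 12 h, 8.04% at 24 h, 39.7% at 30 h and 0.0176% at 48 h. With a size of at least 1 required as well, 22.5% were called at 6 h. Calls were more frequent among bright probe sets: 66.6% of the 1332 others within 0.5 of the mean signal of PEX4 were called at 9 h, and 52.5% of them changed by more than PEX4 did. The share that changed by more was 50.9% at 3 h, 37.8% at 6 h and 43.9% at 12 h. PEX4 thus changed about as much as a typical probe set of its brightness at 3 and 9 h, and more than most at 6 and 12 h. Its calls at 3 to 12 h are not rare ones. Without the 10 arrays it was also called at 24 h, at 0.47. At 1 h that leaves 1 DEX array, kept because its profile goes with DEX, and no weight is given to the difference of 0.50 there, whose error is borrowed from other groups.

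AT4G26410 rose at 4 of the 8 times, 3 to 12 h, in a narrower peak than PEX4. At 3 h its signals were 9.71, 9.25 and 10.01 in DEX arrays, against 9.18, 9.10 and 9.08 in DMSO arrays. At 6 h they were 9.74, 9.70 and 9.84 with DEX, against 9.08, 8.85 and 9.08 with DMSO. At 9 h the DEX arrays read 9.85, 9.99 and 10.02, against 9.08, 9.16 and 9.08 for DMSO. All DEX arrays were higher than all DMSO arrays at these times, and the DEX arrays of 3 h spread most. By 12 h the signals were 9.19, 9.55 and 9.33 with DEX, against 9.07, 9.08 and 9.08 with DMSO, still with no overlap. They overlapped at 24 h, at 9.27, 9.04 and 9.46 with DEX, against 8.85, 9.17 and 9.08 with DMSO. At 30 h they also overlapped, at 9.25, 9.08 and 9.27 with DEX, against 8.99, 9.08 and 9.08 with DMSO. The groups at 1 h overlapped too, at 9.33, 9.08 and 8.95 with DEX and 9.07, 9.02 and 9.08 with DMSO. At 48 h DEX arrays read 9.03, 9.08 and 8.91, against 9.08, 9.08 and 9.23 for DMSO.

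The changes of AT4G26410 were 0.54 ± 0.11 (SE) at 3 h, 0.76 ± 0.11 at 6 h, 0.85 ± 0.11 at 9 h and 0.28 ± 0.11 at 12 h, with limma adjusted p of 8.96e-05, 2.11e-07, 2.05e-08 and 0.0380. The 9 h change is a factor of 1.80. The 12 h call was lost when any array but DEX replicate 1 was left out, and without DEX replicate 2 the difference was 0.18. At 1, 24, 30 and 48 h the differences were 0.06, 0.22, 0.15 and −0.12 and were not called. At 9 h 65.4% of the 1681 other probe sets of like signal were called, and 54.1% changed by more. Many DMSO arrays of this gene hold one identical number. Of the 69 arrays, 20 read the same 9.08 to 5 decimals (3 of them DEX and 14 DMSO arrays of the VND7 line and 3 arrays of the EV line). For a probe set of like signal the median such count was 1, so the standard deviation of 0.08 over the 27 DMSO arrays includes these ties.

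AT2G28390 rose at the same 4 times as AT4G26410, with the highest DEX group mean at 6 h. Its signals at 3 h were 8.55, 8.56 and 8.80 with DEX, against 8.18, 8.09 and 8.41 with DMSO. At 6 h they were 8.78, 8.83 and 8.79 in DEX arrays, against 8.17, 7.90 and 8.12 in DMSO arrays. At 9 h they were 8.46, 8.59 and 8.61 with DEX, against 7.89, 8.32 and 8.04 with DMSO. The treatments did not overlap at any of these times. Nor did they at 12 h, with 8.54, 8.56 and 8.93 in DEX arrays, against 8.07, 8.09 and 8.12 in DMSO arrays. At 24 h the DEX arrays read 8.38, 8.31 and 8.32 and the DMSO arrays 8.30, 8.16 and 8.23. At 30 h the DEX arrays read 8.36, 8.44 and 8.29 and the DMSO arrays 8.16, 8.12 and 8.08. The DEX arrays still lay just above the DMSO arrays at 24 and 30 h. The groups overlapped at 1 h, with 8.41, 8.29 and 7.72 for DEX and 8.11, 8.13 and 8.10 for DMSO. They also overlapped at 48 h, with 8.17, 8.18 and 8.12 for DEX and 8.27, 8.22 and 8.11 for DMSO.

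The changes of AT2G28390 were 0.41 ± 0.11 (SE) at 3 h, 0.74 ± 0.11 at 6 h, 0.47 ± 0.11 at 9 h and 0.58 ± 0.11 at 12 h, with limma adjusted p of 0.00199, 3.14e-07, 3.71e-04 and 3.88e-05. The largest is a factor of 1.67. The difference of 0.24 at 30 h was not called with all arrays (adjusted p = 0.0670 by limma) and was called without the 10 arrays, in which none of the 30 h arrays is left out (0.0231). Differences of 0.02, 0.11 and −0.04 at 1, 24 and 48 h were not called. At 9 h 65.1% of the 2447 other probe sets of like signal were called, and 75.7% changed by more than AT2G28390.

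AT4G34270 was called at none of the 8 times, and its treatments overlapped at all but 24 h. Its signals at 3 h were 8.49, 8.17 and 8.24 in DEX arrays, against 8.26, 8.39 and 8.42 in DMSO arrays. At 6 h they were 8.28, 8.33 and 8.31 with DEX, against 8.19, 8.62 and 8.48 with DMSO. At 9 h they were 7.89, 8.17 and 8.24 with DEX, against 8.06, 8.39 and 8.41 with DMSO. The DEX replicate 1 array of 9 h is the lowest of the VND7 line for this gene. At 12 h the signals were 8.31, 8.24 and 8.24 with DEX, against 8.33, 8.26 and 8.24 with DMSO. At 24 h they were 8.24, 8.11 and 8.28 with DEX, against 8.79, 8.42 and 8.31 with DMSO. That is the one time at which all DEX arrays were lower, and DMSO replicate 1, an array out of place, is the highest of the series. The signals at 1 h were 8.38, 8.24 and 8.26 with DEX, against 8.43, 8.66 and 8.33 with DMSO. At 30 h they were 8.24, 8.27 and 8.57 with DEX, against 8.34, 8.24 and 8.24 with DMSO. At 48 h they were 8.28, 8.41 and 8.24 with DEX, against 8.23, 8.41 and 8.30 with DMSO, the closest pair of groups.

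In order of time from 1 to 48 h, the differences of AT4G34270 were −0.18, −0.06, −0.12, −0.19, −0.01, −0.29, 0.09 and −0.00, each with an SE of 0.11. The 95% intervals reached down to −0.51 at 24 h, where the adjusted p by limma was 0.0771 and the difference was −0.10 without the 10 arrays out of place, and up to 0.30 at 30 h, so changes of that size at a single time lie within the error. At 9 h 65.2% of the 2440 other probe sets of like signal were called and 89.7% changed by more. At 12 h 99.0% changed by more. When the out-of-place DMSO array of the time was left out, the difference was −0.08 at 1 h, −0.03 at 6 h and −0.15 at 24 h. When another DMSO array was left out instead, it was as low as −0.25, −0.24 and −0.39 at those times. This gene also had tied values, with 10 arrays at the same 8.24 (6 DEX and 4 DMSO arrays of the VND7 line).

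Averaged over the 8 times, DEX raised PEX4 by 0.58 ± 0.05 (SE), AT4G26410 by 0.34 ± 0.04 and AT2G28390 by 0.32 ± 0.04 (limma adjusted p of 2.15e-13, 9.53e-11 and 6.89e-10). AT4G34270 fell by 0.10 on the log2 scale (95% interval −0.17 to −0.02, adjusted p = 0.0251 by limma), a direction that turned to a rise of 0.26 when arrays were centred on their median. With array weights the difference was −0.0068 and after quantile normalization −0.067, neither called. Centred on the bacterial controls, AT4G34270 fell by 0.40, PEX4 rose by 0.28, and AT4G26410 (0.037, adjusted p = 0.559 by limma) and AT2G28390 (0.0088, adjusted p = 0.903) were no longer called. On the deposited values 59.2% of all probe sets were called, and 80.2% of those of like signal to AT4G34270. The call of AT4G34270 was lost without DMSO replicate 1 of 24 h (−0.08, adjusted p = 0.0525 by limma) and without DEX replicate 1 of 9 h (−0.08, adjusted p = 0.0501).

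The course of the DEX group means was also summarised by a slope. A line through the 8 DEX group means fell by 0.28 per 24 h for PEX4, by 0.30 for AT4G26410 and by 0.19 for AT2G28390 (limma adjusted p of 1.40e-04, 2.27e-07 and 4.47e-04), against a background of 35% of probe sets called. For AT4G34270 the slope was 0.03 per 24 h (95% interval −0.06 to 0.11). Centred on the bacterial controls, the slopes were −0.16 for PEX4, −0.18 for AT4G26410 and −0.064 for AT2G28390, of which the last was not called (adjusted p = 0.463 by limma). The 48 h group, whose 3 arrays go with DMSO, sits at the end of this line. No slope was fitted without that group, so whether the DEX rise fades with time apart from these 3 arrays was not tested. In DMSO cultures of the VND7 line no reference gene had a called slope, with values of −0.01 for PEX4, 0.02 for AT4G26410, 0.02 for AT2G28390 and −0.02 for AT4G34270 per 24 h, and 95% intervals that all lay between −0.12 and 0.10. Here limma called 0% of all probe sets, with 246 at an unadjusted p under 0.05. The group means of the 9 DMSO times ran from 9.30 to 9.59 for PEX4, from 9.00 to 9.13 for AT4G26410, from 8.06 to 8.23 for AT2G28390 and from 8.26 to 8.51 for AT4G34270. For each gene these 9 means spanned less than the largest SD of a DMSO group of 3.

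With DEX in the EV line, none of the 4 genes was called. In the EV line at 9 h PEX4 read 9.71, 9.66 and 9.63 with DEX, against 9.61, 9.73 and 9.60 with DMSO. AT4G26410 read 9.01, 8.94 and 9.06 with DEX, against 8.90, 8.97 and 9.02 with DMSO. Both overlapped. AT2G28390 read 8.12, 8.12 and 8.13 with DEX, against 8.09, 8.05 and 8.01 with DMSO, the one EV comparison of these genes without overlap. AT4G34270 read 8.09, 8.09 and 7.95 with DEX, against 8.15, 8.06 and 8.08 with DMSO. At 12 and 24 h the treatments overlapped for each gene, and AT4G26410 had its lowest array of the series at 24 h, with 8.56, 8.85 and 8.89 for DEX, against 8.88, 8.88 and 8.95 for DMSO. None of the 12 differences was called by limma, and they lay between −0.14 and 0.08. Of all probe sets, 0.136% were called at 9 h, 0.127% at 12 h and 0.198% at 24 h. The average over the 3 times was 0.04 for PEX4 (95% interval −0.14 to 0.21), −0.02 for AT4G26410 (−0.14 to 0.11), 0.04 for AT2G28390 (−0.08 to 0.17) and −0.02 for AT4G34270 (−0.14 to 0.11), where 0.536% of probe sets were called.

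The difference between the lines was tested directly. At 9 to 24 h the DEX effect in the VND7 line exceeded that in the EV line by 0.64 ± 0.12 (SE) for PEX4, 0.47 ± 0.09 for AT4G26410 and 0.34 ± 0.09 for AT2G28390 (limma adjusted p of 4.39e-05, 3.75e-05 and 0.00163). The difference for AT4G34270 was −0.15 ± 0.09 (adjusted p = 0.200 by limma). The share of probe sets called was 37.6%. Centred on the bacterial controls, none of the first 3 differences was called (0.18, 0.01 and −0.12), and that of AT4G34270 was called at −0.61. Without DEX, the VND7 line exceeded the EV line at 9 to 24 h by 0.30 ± 0.06 (SE) for AT4G34270 (adjusted p = 2.97e-04 by limma). The VND7 DMSO arrays of AT4G34270 at these times read 8.06 to 8.79 and the EV DMSO arrays 7.93 to 8.15, with an overlap of 1 VND7 array (9 h, replicate 1). PEX4, AT4G26410 and AT2G28390 differed by −0.03, 0.11 and 0.16 and were not called, against 14.4% of all probe sets called. AT2G28390 was called without the 10 arrays out of place (0.15, adjusted p = 0.0377 by limma), and also without EV DMSO replicate 3 of 12 h or VND7 DMSO replicate 1 of 9 h (0.19 each), after quantile normalization (0.18) and with array weights (0.15). The bacterial controls were themselves 0.40 higher in the VND7 line. On arrays centred on them the line difference of AT4G34270 turned to −0.10 and was not called. PEX4, AT4G26410 and AT2G28390 were then lower in the VND7 line by called differences of −0.43, −0.29 and −0.24, where 62.7% of all probe sets were called.

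The spread over all arrays put the genes in the order PEX4, AT4G26410, AT2G28390 and AT4G34270, from most to least variable. The standard deviation over 69 arrays was 0.371, 0.296, 0.262 and 0.180 in that order, and the highest array exceeded the lowest by 1.54, 1.46, 1.21 and 0.97. Replicate error was alike for 3 of them. Within groups the pooled SD was 0.184 for PEX4, 0.133 for AT4G26410, 0.131 for AT2G28390 and 0.130 for AT4G34270. The SD of the 23 group means was 0.344, 0.279, 0.243 and 0.147, which is 1.87, 2.10, 1.85 and 1.13 times the SD within groups. Replicate error alone would give means of 3 arrays an SD of 0.106 for PEX4, 0.077 for AT4G26410, 0.076 for AT2G28390 and 0.075 for AT4G34270. The group means of all 4 genes spread by more than that, and those of AT4G34270 by the least.

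**Figure D2:**
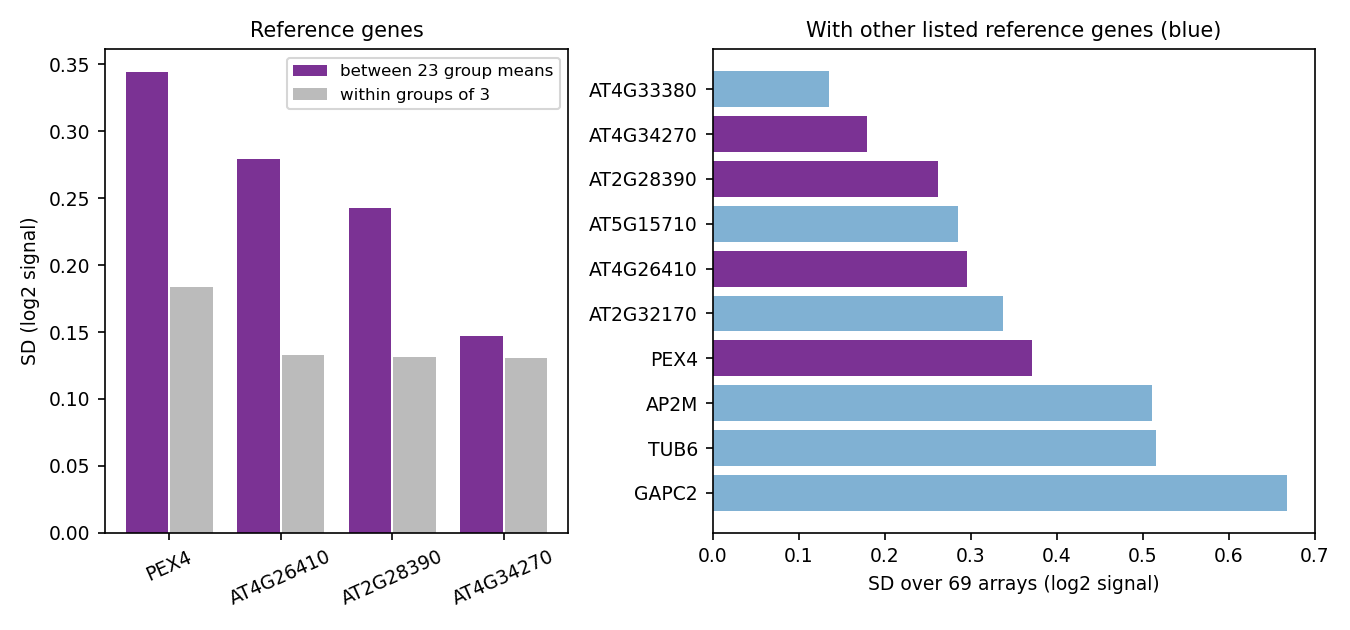
Left: SD (log2 signal) of the 23 group means and pooled SD within groups of 3 for each reference gene. Right: SD over 69 arrays of the 4 genes (purple) beside 6 other listed reference genes with a mean signal of at least 4 (blue), where AT4G33380 at 0.136 and AT4G34270 at 0.180 have the shortest bars and GAPC2 at 0.668 the longest.

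Against probe sets of like brightness all 4 genes were on the steady side. The share of probe sets within 0.5 of its mean signal that had a lower SD was 25.0% for PEX4, 12.2% for AT4G26410, 7.15% for AT2G28390 and 0.655% for AT4G34270. Among the 3969 probe sets of a single named gene with a mean of at least 7, AT4G34270 ranked 47 from the steadiest, AT2G28390 294, AT4G26410 459 and PEX4 922. The 5 steadiest were AT4G37830, AT5G23590, AT3G13480, AT4G36750 and AT5G06580, with SDs of 0.111 to 0.128. The order of the 4 genes held without the 10 arrays, at 0.394, 0.309, 0.271 and 0.161. It was another one over fewer arrays: over the 27 DMSO arrays of the VND7 line alone the SD was 0.213 for PEX4, 0.079 for AT4G26410, 0.114 for AT2G28390 and 0.155 for AT4G34270, where AT4G26410, with its ties, spread least. Over the 24 DEX arrays it was 0.360, 0.360, 0.272 and 0.128.

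The genes were also read in the arrays out of place. PEX4 read 9.20 to 9.61 in the 6 DEX arrays whose profile goes with DMSO, against 9.86 to 10.46 in the 18 other DEX arrays. It read 9.53 to 9.81 in the 4 DMSO arrays with raised markers, against 8.92 to 9.77 in the 23 others. AT4G26410 was 8.91 to 9.08 in those 6 DEX arrays, against 9.08 to 10.02 in the other DEX arrays. In the 4 DMSO arrays, however, it read 8.85 to 9.08, no higher than the 8.99 to 9.23 of the others. In 3 of these DMSO arrays the markers averaged 9.39 to 9.69 while AT4G26410 was at 8.85 to 9.02. AT4G34270 read 8.66, 8.62 and 8.79 in the same 3 arrays (DMSO replicate 2 of 1 h, replicate 2 of 6 h and replicate 1 of 24 h), higher than in any other array. In the remaining one, DMSO replicate 3 of 0 h with markers of 6.39, it read 8.21. In the 6 DEX arrays it read 8.11 to 8.41, against 7.89 to 8.57 in the other DEX arrays. AT2G28390 read 7.72 to 8.31 in the 6 DEX arrays, against 8.29 to 8.93 in the other DEX arrays. In the 4 DMSO arrays it read 7.90 to 8.31, within the 7.89 to 8.41 of the others. These values are a description, since the arrays were picked from their own profiles.

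**Figure D3:**
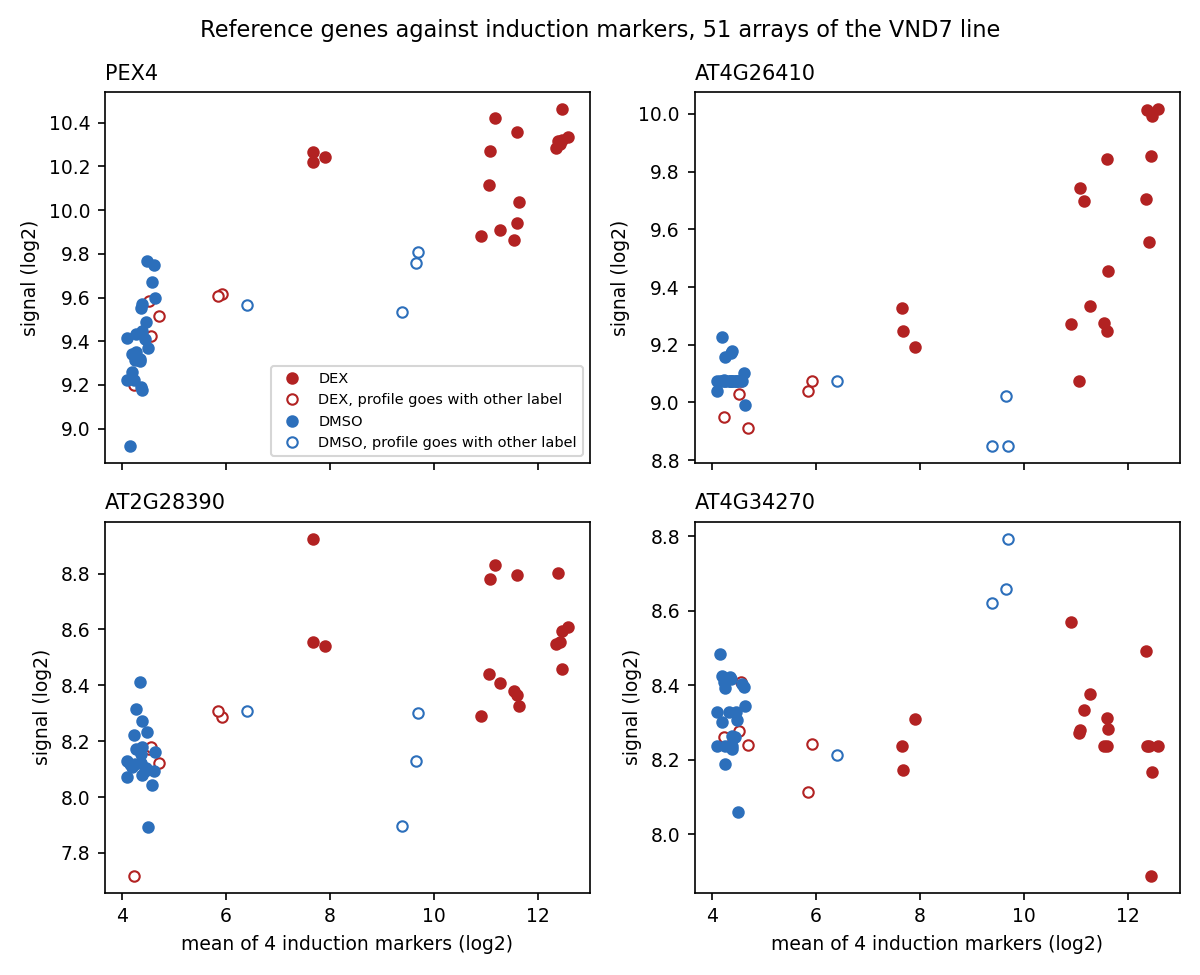
Signal (log2) of each reference gene against the mean of 4 induction markers (log2) in the 51 arrays of the VND7 line, DEX in red and DMSO in blue, with open circles for the 10 arrays whose profile goes with the other label. PEX4 lies at 9.86 or above in the 18 DEX arrays with raised markers, whereas AT4G34270 has its 3 highest signals (8.62 to 8.79) in DMSO arrays with markers of 9.39 to 9.69.

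Each reference gene was also measured against the others, which removes whatever an array's scale adds to all 4. Over 69 arrays the SD of the difference was smallest for AT4G26410 and AT2G28390, at 0.192, and largest for PEX4 and AT4G34270, at 0.409. The other pairs were between 0.244 and 0.332. By the mean SD to the other 3, the order was AT2G28390 (0.239), AT4G26410 (0.256), PEX4 (0.299) and AT4G34270 (0.340). A ranking by pairs thus puts last the gene that had the lowest SD on the deposited scale. Pairs among the other 3 had lower SDs (0.192 to 0.244) than pairs with AT4G34270 (0.280 to 0.409). Over the 8 times, DEX raised PEX4 over AT4G34270 by 0.68 (adjusted p = 1.87e-13 by limma), over AT2G28390 by 0.27 (1.05e-04) and over AT4G26410 by 0.24 (8.09e-04). AT4G26410 rose over AT4G34270 by 0.44 (adjusted p = 2.04e-09 by limma), and AT2G28390 rose over AT4G34270 by 0.41 (8.85e-09). AT4G26410 and AT2G28390 did not separate on this average (0.03, 95% interval −0.07 to 0.13, adjusted p = 0.604 by limma). At single times a difference between them was called only at 9 h. AT4G26410 rose over AT2G28390 by 0.38 at 9 h (adjusted p = 0.0150 by limma), and the difference was −0.29 at 12 h, not called (adjusted p = 0.0590). The pair tests were each adjusted over all probe sets on arrays centred on the second gene. They are ratios, which show unequal change and not which gene of a pair moved.

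Which gene stayed level depends on what is held fixed. The 18 bacterial hybridisation control probe sets were higher in DEX than in DMSO arrays of the VND7 line by 0.28, 0.42, 0.16, 0.74, 0.15, 0.25, 0.54 and −0.08 from 1 to 48 h, and by 0.31 on average. In the EV line the average difference was −0.08. Array medians went the other way in the VND7 line, with DEX minus DMSO differences of −0.11 to −0.58 from 1 to 30 h, −0.01 at 48 h and −0.35 on average. Greening markers shifted as well, with differences of −6.58 at 9 h and −7.07 at 30 h for PORB, both called, and −1.21 at 6 h, not called, and the root hair markers were called at 30 h alone among the 8 times, as higher (1.53 for EXPA7 and 2.05 for EXPA18). The part of these marker shifts in the changes of the 4 genes was not tested. Centred on the bacterial controls, PEX4 was called as higher at 3 times (3, 6 and 12 h, at 0.44, 0.89 and 0.73). At 9 h its difference was 0.17, and at 30 h it turned to −0.01. AT4G26410 rose at 6 h (0.60) and fell at 30 h (−0.38) on that scale, and AT2G28390 rose at 6 h (0.58), with its 3 and 9 h differences turned to −0.01 and −0.27. AT4G34270 fell at 4 times there, 3, 9, 24 and 30 h, by up to 0.93 at 9 h. Of all probe sets, 61.0% were called on this scale at 3 h, 29.8% at 6 h, 75.6% at 9 h, 28.2% at 12 h, 5.50% at 24 h and 70.6% at 30 h. Centred on the array median, the first 3 genes rose at 5 times each, and AT4G34270 rose at 3, 12 and 30 h (0.52, 0.47 and 0.52). On the median scale 60.6% to 72.3% of all probe sets were called at 3 to 12 h and 71.9% at 30 h. Either centring shifts every probe set of an array alike, also the 31.0% that on average lay within 0.3 of the floor. How many calls on these scales came from such probe sets was not counted. The rise at 6 h held for PEX4, AT4G26410 and AT2G28390 on the deposited, bacterial-control and median scales. AT4G34270 was called at no time on the first of these scales, lower at 4 times on the second and higher at 3 on the last.

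**Figure D4:**
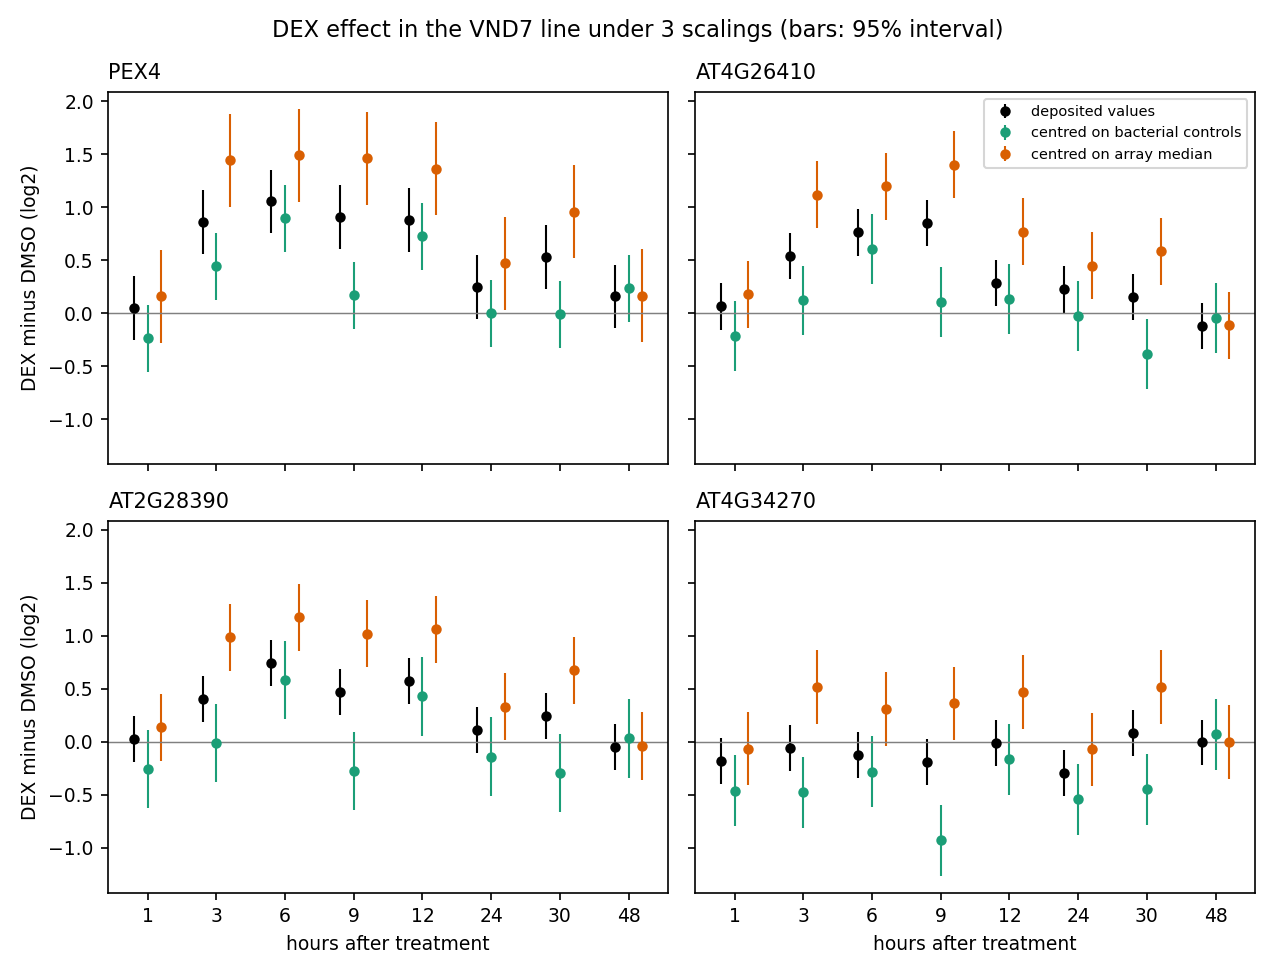
DEX minus DMSO (log2) in the VND7 line by hours after treatment (times equally spaced, not to scale), with 95% intervals from limma, on the deposited values (black), after centring arrays on the bacterial controls (green) and after centring them on their median (orange). AT4G34270 lies near 0 on the deposited values, at −0.93 at 9 h on the control scale and at 0.36 on the median scale, and only at 6 h are the other 3 genes called as higher on all 3 scales.

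Scaling on a single reference gene moves every probe set by that gene's own change, so the balance of rises and falls follows from the changes above. At 9 h the deposited values gave 2683 rises and 4019 falls with an adjusted p under 0.05 and a size of at least 1. Scaled on PEX4 there were 1304 rises and 8147 falls. Scaled on AT4G26410 there were 1341 and 7696, and on AT2G28390 1809 and 5750. Scaled on AT4G34270 there were 3283 rises and 3403 falls, the most even split. Rises were 40.0% of these calls on the deposited values, 13.8% on PEX4 and 49.1% on AT4G34270. The mean of the 4 genes gave 1763 rises and 5928 falls, and the bacterial controls 1476 and 7029. A strongly induced gene kept its direction but moved like the rest. GUT2, a xylan synthesis gene of the secondary wall, differed by 6.41 on the deposited values, 5.50 on PEX4 and 6.60 on AT4G34270. At 30 h the share of rises among the calls was 45.6% on the deposited values, 25.8% on PEX4, 38.4% on AT4G26410, 34.0% on AT2G28390 and 42.9% on AT4G34270.

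**Figure D5:**
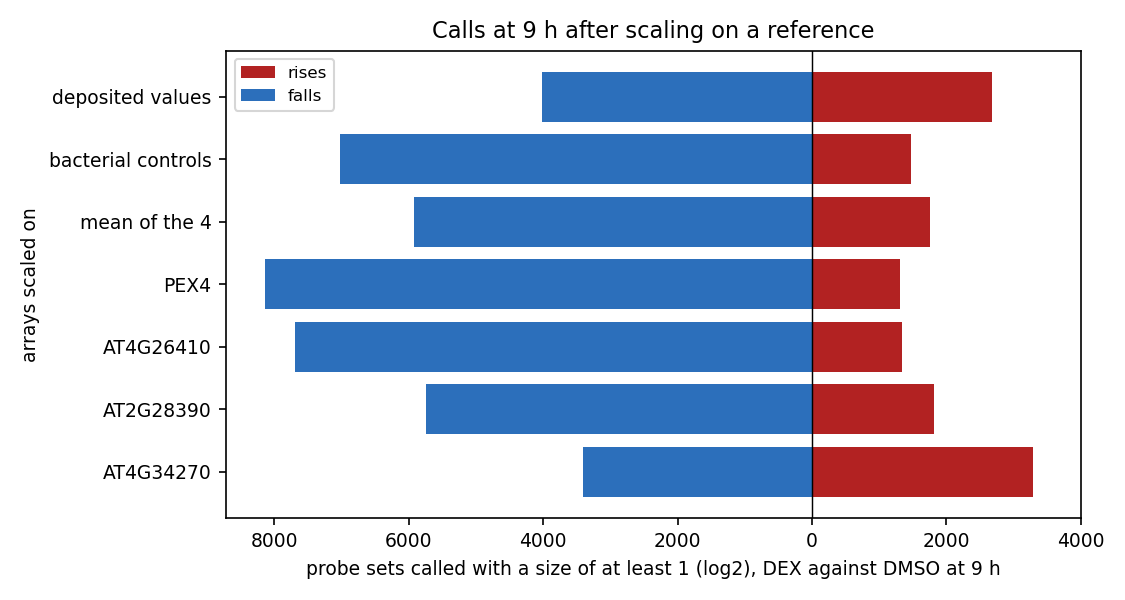
Numbers of probe sets that rose (right, red) or fell (left, blue) with DEX at 9 h in the VND7 line, with an adjusted p under 0.05 and a size of at least 1 on the log2 scale, after arrays were scaled on the reference named at the left. The rises range from 1304 on PEX4 to 3283 on AT4G34270, beside 2683 on the deposited values.

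Other common reference genes were both more and less steady than the 4. Of 30 listed, 8 had a probe set of their own name here. At 9 h 1 rose and 3 fell (43.7% of all probe sets were called), with a median of −0.05 over the 8 and 0.00 over all probe sets. GAPC2, a glycolytic glyceraldehyde 3-phosphate dehydrogenase, fell by 1.84 on the log2 scale at 9 h and by 1.09 on average (adjusted p = 4.47e-14 by limma). AP2M, an adaptor subunit for clathrin-coated vesicles, rose by 1.17 at 9 h and by 0.76 on average. AT2G32170 fell by 0.74 at 9 h. The other fall called at 9 h, of AT5G12240 by 0.07, was at the floor, where its mean of 2.14 and that of AT5G55840 (2.28) leave no measurable level. AT5G15710 averaged 5.12 with an SD of 0.286. TUB6, a beta-tubulin, had an SD of 0.516, and TUB6, AP2M and GAPC2 varied more than any of the 4. On the deposited values AT4G33380 was the steadiest of those above the floor, with an SD of 0.136 over 69 arrays, lower than that of AT4G34270. Its difference was −0.04 at 9 h and −0.00 on average (95% interval −0.07 to 0.07). How level it was on the other scales is not given here. The array's own control probe sets for GAPDH were lower with DEX (12.63 against 13.35 for the 3 prime probe set, means of 24 DEX and 27 DMSO arrays of the VND7 line). Those for ubiquitin were higher with DEX and differed less. One read 13.24 against 13.07 (SD over all arrays 0.151), and the one that differed most 13.35 against 13.02 (SD 0.270). The GAPDH probe set that differed least read 12.05 against 12.57.

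Of the genes that work beside the 4, few could be read here. None of 21 listed peroxins and neither of the 2 listed RHIP1 partners had a probe set under its own name. From 16 listed genes of vacuole fusion, to which MON1 belongs by function, 3 were measured and all 3 rose at 3, 6 and 9 h, when 43%, 35.3% and 43.7% of all probe sets were called. At 9 h CCZ1A rose by 1.11, CCZ1B by 0.82 and VPS18, a subunit of the tethering complexes at the vacuole, by 0.77, and over the 8 times their median was 0.47 beside 0.00 for all probe sets. CCZ1A and CCZ1B, which encode the partner of MON1, are closely similar genes, so their probe sets may share signal. From 15 listed genes of TOR and type 2A phosphatases 2 were measured, RAPTOR1A, near the floor at 2.42, and RAPTOR1B, both encoding the TOR scaffold. Neither was called at 9 h, and both rose at 30 h, by 0.43 and 0.91, a time at which 39.7% of all probe sets were called and AT4G34270 differed by 0.09.

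The genes whose group means moved most like each reference gene were named by Pearson correlation over the 23 group means among the 3969 probe sets above. The points share arrays and scale, so the values are descriptive. For PEX4 they were AT5G24710, AT5G16280 and AT1G21630, with r of 0.975, 0.974 and 0.974. For AT4G26410 they were AT2G03690, AT1G63290 and AT1G11660, with r of 0.967, 0.961 and 0.953. For AT2G28390 they were GEM, AT1G31780 and AT2G30050, with r of 0.966, 0.964 and 0.963. AT4G34270 was most like IDH-VI, AT5G63680 and AT5G10695, with r of 0.904, 0.897 and 0.891, lower than for the other genes. Among the 4 genes, r was 0.876 for PEX4 and AT4G26410, 0.869 for PEX4 and AT2G28390 and 0.857 for AT4G26410 and AT2G28390. With AT4G34270 it was −0.03 for PEX4, 0.10 for AT4G26410 and 0.30 for AT2G28390. Such values were common among bright probe sets: PEX4 ranked 252 by its correlation with AT4G26410.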

How the data were processed

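The deposited values are log2 signals of 69 Affymetrix ATH1 arrays, made by the authors with GCRMA (version not given), per the submitters' processing notes. As background, GCRMA corrects each probe by its sequence and gives all arrays one distribution of intensities, so a signal is relative to the array's other probes. The values were used as deposited: 22810 probe sets, of which 64 controls were left out of tests and 22746 were tested. Probe sets were named from the platform annotation, which gave a single gene for 13513.

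A model with a mean for each group was fitted over the 69 arrays with limma 3.58.1 (R 4.3.3; lmFit, and eBayes with a trend), and contrasts were adjusted by Benjamini-Hochberg over all tested probe sets, with a threshold of 0.05. Slopes are linear over the group means. Tables and plots used Python 3.11.15, pandas 2.3.3, numpy 2.4.6 and matplotlib 3.10.9. Named are the 4 reference genes, members of the lists, the 3 genes most like each reference gene and the 5 steadiest with a mean of at least 7, and array controls. The 4 genes, though taken by name, and the lists were chosen with earlier results of these data known. On data simulated for 9 h with 50 changed probe sets per size among 22746, the fit recovered 0%, 12%, 70% and 100% of changes of 0.25, 0.5, 1 and 2. Far fewer probe sets changed there than were called at 9 h in the data (43.7%), so these rates do not carry over to the data. Precision is limited by 3 arrays a group. Arrays carry no date or batch used here. No 2 arrays of a group were identical (highest correlation 0.998), and arrays of different groups were not checked for this. Replicate numbers did not pair arrays: of 33 pairs of the same number 8 had deviations correlated over 0.1, and of 66 other pairs 15. Alternatives covered scaling, filtering, the prior, array weights, the replicate block and leaving out arrays. No sequences were searched or printed here.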

Additional observations from a re-analysis of the deposited data

Results flagged for a closer look

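The DEX effect of 3 reference genes differed between the lines by a test of the difference itself (limma, adjusted over all probe sets). At 9 to 24 h it was larger in the VND7 line than in the EV line by 0.64 for PEX4, 0.47 for AT4G26410 and 0.34 for AT2G28390, with 37.6% of all probe sets called in the same test. Leaving out any 1 array moved these differences to no less than 0.57, 0.44 and 0.30, and all stayed called. On arrays centred on the bacterial controls they were 0.18, 0.01 and −0.12, and none was called. The bacterial controls themselves were higher with DEX by 0.74 at 9 h in the VND7 line and lower by 0.20 in the EV line (a difference of −0.20).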

How the results depend on the processing

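The 10 arrays out of place, the choice of scale and the 3 arrays a group limit these results. On the deposited values a change of 0.28 was called (AT4G26410 at 12 h) and one of −0.29 was not (AT4G34270 at 24 h). Leaving out the 10 arrays gave no value for 48 h, the 8-time average or the DEX slope, since no 48 h DEX array is left. Fits on the compared groups only were not made for averages and slopes, and the planned motif search was not run. Where a cause is not given, the cause was not tested.

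With array weights the 8-time average of AT4G34270 was −0.0068, and after quantile normalization it was −0.067, neither called. Without one array in turn, that average lay between −0.11 and −0.079 and lost its call without DMSO replicate 1 of 24 h or DEX replicate 1 of 9 h. The averages of PEX4 (0.56 to 0.61), AT4G26410 (0.32 to 0.37) and AT2G28390 (0.30 to 0.34) and the differences between lines (0.57 to 0.68, 0.44 to 0.51, 0.30 to 0.38 and, for AT4G34270, −0.18 to −0.10) kept their side of the threshold. Single times were less firm: AT4G34270 was called at 9 h without DMSO replicate 1 (−0.30) and at 24 h without DMSO replicate 3 (−0.39), AT4G26410 at 24 h without DEX replicate 2 (0.33). Fitted on the compared groups only, AT4G26410 at 3 and 12 h and AT2G28390 at 3 h were not called (limma adjusted p of 0.149, 0.145 and 0.0844).

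Centring on a reference gene sets its own change to 0 by construction. On AT2G28390, AT4G26410 was 0.13 between lines, 0.028 over 8 times and −0.29 at 12 h, PEX4 0.30 and AT4G34270 −0.49 between lines. On AT4G26410, AT2G28390 was −0.13 between lines, −0.028 over 8 times, −0.13, −0.021 and −0.38 at 3, 6 and 9 h and 0.11 in DEX slope, PEX4 was 0.17 between lines and 0.017 in slope, and AT4G34270 was −0.62 between lines with an SD of 0.332. On PEX4, AT2G28390 was −0.30 between lines, −0.27 over 8 times, −0.45, −0.31, −0.44 and −0.30 at 3, 6, 9 and 12 h and 0.10 in slope. AT4G26410 was then −0.17 between lines, −0.24 over 8 times and −0.32, −0.29, −0.060 and −0.59 at those times, and AT4G34270 −0.79 between lines and −0.44 at 30 h with an SD of 0.409. On the mean of the 4, AT2G28390 was 0.016 between lines, 0.029 over 8 times and −0.030 and −0.042 at 3 and 9 h (SD 0.108), AT4G26410 0.14, 0.057 and, at 12 h, −0.15 (SD 0.140), and AT4G34270 −0.47 between lines.

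On the bacterial controls, AT2G28390 was −0.12 between lines, 0.0088 over 8 times, −0.011 and −0.27 at 3 and 9 h and −0.24 without DEX against EV. AT4G26410 was 0.0065, 0.037, −0.38 at 30 h and −0.29 against EV, AT4G34270 was −0.61 between lines, −0.45 at 30 h and −0.10 against EV (SD 0.316), and PEX4 was 0.18 and −0.0088 at 30 h. On array medians the SDs were 0.588 for PEX4, 0.502 for AT4G26410, 0.470 for AT2G28390 and 0.331 for AT4G34270, which was 0.26 over 8 times, 0.52 and 0.47 at 3 and 12 h and −0.17 in DEX slope.

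With replicate numbers as a block no call of a reference gene changed: the 8-time average stayed 0.58 for PEX4 and −0.10 for AT4G34270 (limma adjusted p of 7.18e-13 and 0.0281), and 9878 probe sets were called at 9 h, against 9931. Counts over all probe sets moved more. At 1 h 12 were called, and 8915 without the 10 arrays, a count that rests on 1 DEX array kept because its profile goes with DEX and on the spread of other groups. At 24 h 1828 were called, 1 on the compared groups only and 10088 without the 10 arrays. At 48 h 4 were called, and 2495 with array weights. At 9 h the counts were 15500 to 18007 on the median, the controls and the references other than AT4G34270, and 9591 on AT4G34270. At 3, 6, 12 and 30 h, where 9782, 8023, 7961 and 9021 were called, the highest counts over the alternatives were 17490, 18341, 17284 and 16354. For the difference between lines (8561 called) the highest was 17131, for the DEX slope (7964) 16956, and for the lines without DEX (3285) 14270. In the EV line 31, 29, 45 and 122 were called at 9, 12 and 24 h and on average, and at most 643, 392, 517 and 1545.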
